A study of Mus musculus with 2 samples.

Results

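The 8 genes described here, Cxcr5, Pdcd1, Sh2d1a, Bcl6, Tox, Il21, Slamf6 and Izumo1r, are names commonly used for the follicular helper programme of CD4 T cells. They were taken by name, 8 of the 12432 genes in the deposited table, and all 8 were found. They were followed in 178 single CD4 T cells that bind the 2W1S peptide, sorted from C57BL/6 mice that carried a recombinant Candida albicans expressing 2W1S, the spleen and peripheral lymph nodes being the source. There is 1 group, labelled CA-2W1S colonization, in 2 samples labelled by month. Each sample is called a capture here, a name the labels do not give, and pools 2 dates of the column names, called runs. March has 82 cells (25 in the run Mar1 and 57 in the run Mar17) and April 96 (48 each in Apr13 and Apr21). No uncolonized mice and no other T cell population were analysed here, and the labels give neither the age nor the number of mice behind a capture, so the spread between captures may be technical. Month is the only label that separates the captures, so a difference between them cannot be told apart from a batch.

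Follicular helper T cells are the CD4 T cells that enter B cell follicles and help B cells to form germinal centres. CXCR5 is the chemokine receptor that guides them towards the follicle. BCL6 is the transcriptional repressor on which the programme depends, and TOX is a nuclear factor that also takes part in it. PD-1, encoded by Pdcd1, is an inhibitory receptor carried at high levels by germinal centre helper cells. SLAMF6 is a contact receptor that signals through the adaptor SAP, the product of Sh2d1a, and SAP is needed for stable contact with B cells. IL-21 is the cytokine these cells deliver to B cells. IZUMO1R, also called folate receptor 4, is a surface protein known from both follicular helper and regulatory T cells. Several of these genes are not exclusive to helper cells: Slamf6, Sh2d1a and Izumo1r are also found in other CD4 T cells, and Pdcd1 and Tox rise after activation.

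The deposited values are log2 values. Raising 2 to each value and subtracting the pseudocount of 1 gave the number called the linear value here, which behaves like a TPM value (transcript abundance scaled to a fixed total) and summed to between 892206 and 979888 per cell. A cell was counted as holding a gene when its linear value was at least 1, which is a log2 value of 1. Reads per cell are unknown, because the deposited values are not counts. The number of genes detected per cell ranged from 2927 to 6990, with a median of 5344 in March and 4933.5 in April. In 3 cells, all of Mar1, mitochondrial genes took more than 50% of the signal. Markers of the labelled cell type were present: Cd3d, Cd3g, Trbc2 and Lck were held by 100% of cells and Cd4 by 70.8%.

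Cxcr5 lies at chr9:44511787-44561877, Pdcd1 at chr1:94038305-94052553, Bcl6 at chr16:23965052-23988852, Tox at chr4:6686353-6991557, Il21 at chr3:37222759-37232636 and Izumo1r at chr9:14885814-14903949, all on the minus strand of mm10 in GENCODE vM21. Sh2d1a at chrX:42502453-42529330 and Slamf6 at chr1:171917515-171953170 are on the plus strand. Exons of 5 of the 8 genes overlap exons of a gene on the other strand: Bcl9l at Cxcr5, Tenm1 at Sh2d1a, Gm37419 at Bcl6, Gm11802 at Tox and Gm12534 at Il21. Whether counting used the strand is not given in the sources used here, so reads from such partners cannot be told apart. Tenm1 was held by 38.2% of cells and Bcl9l by 14.0%.

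The 8 genes fell into 3 levels of use. Izumo1r was held by 95.5% of the 178 cells and Sh2d1a by 73.6%. Tox (53.9%), Slamf6 (47.8%) and Cxcr5 (33.7%) were intermediate. Il21 (21.9%), Pdcd1 (15.7%) and Bcl6 (15.2%) were held by the fewest cells. The median over the 8 genes was 40.7%, against 16.9% over all genes in the table. Among all genes, the shares of Pdcd1 and Bcl6 stood at percentiles 46.7 and 45.5, and that of Izumo1r at percentile 97.7.

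Values of the 8 genes ran from 0 to high levels within each run. Cxcr5 was at 0 in 57 cells, between 0 and 1 in 61, between 1 and 10 in 18, and at 10 or above in 42. Tox was between 0 and 1 in 68 cells, between 1 and 10 in 45 and at 10 or above in 51. Slamf6 had 59, 23 and 62 cells in these bands. Pdcd1 was at 0 in 103 cells and Bcl6 in 126, and only 17 and 15 cells held them at 10 or above. Values near 1 need care. The smallest value above 0 was 0.136 for Cxcr5, 0.190 for Pdcd1 and 0.121 for Bcl6, but 0.573 for Sh2d1a and 0.434 for Izumo1r, so for these last genes a linear value of 1 is only 1.74 and 2.30 times the smallest value seen. Low values also occur for genes of other cell types: Ebf1, a B cell transcription factor, was held by 88.8% of cells at 1 and by 2.81% at 10, and Pax5 by 14.0% and 2.25%. The shares of Pdcd1 and Bcl6 at 1 are close to that of Pax5, while at 10 they were 9.55% and 8.43%. Shares are given below at both thresholds where they differ in what they show.

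**Figure D1:**
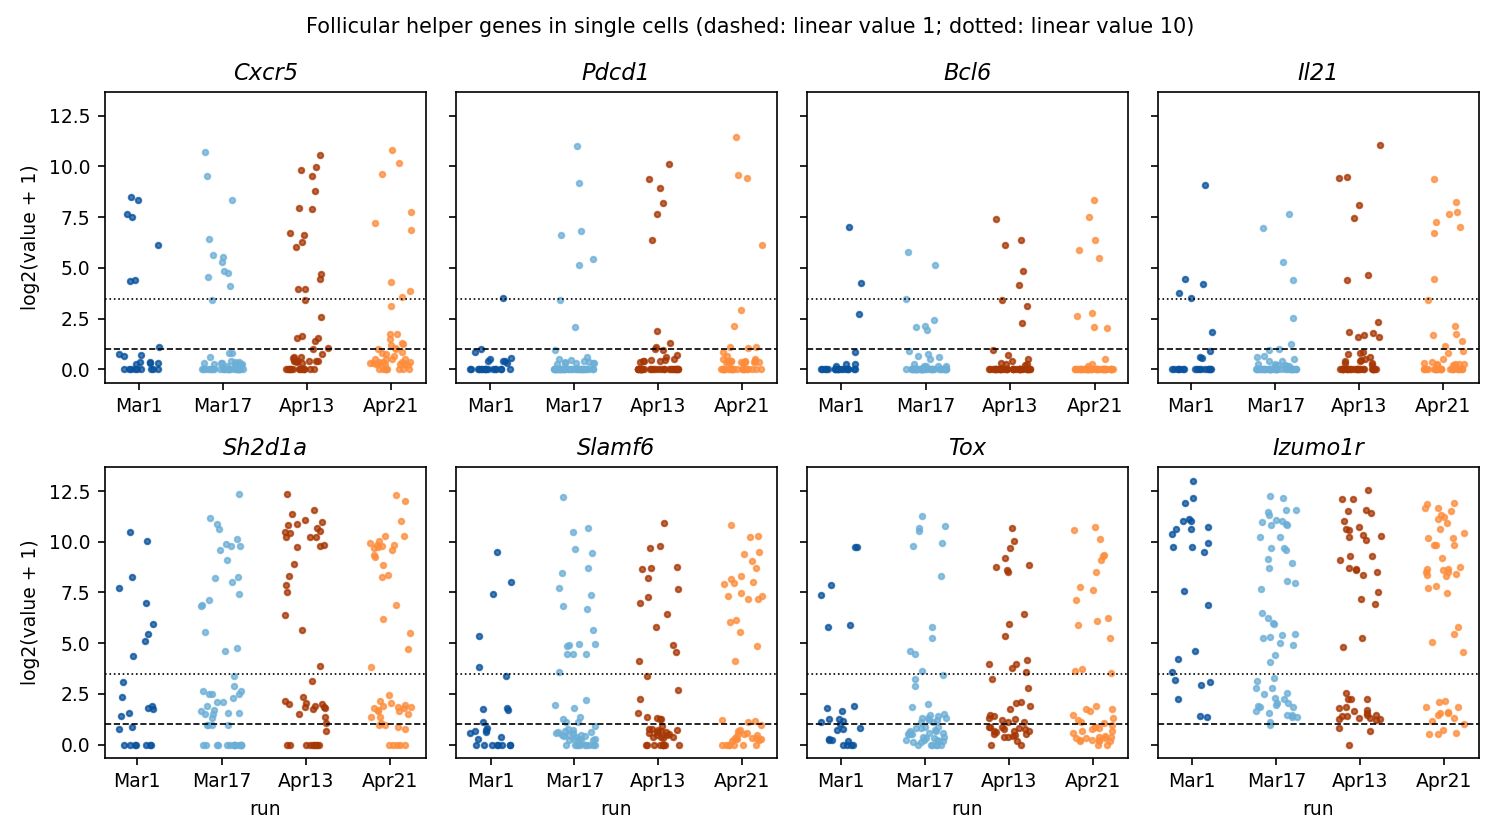
Each point is 1 cell and each panel 1 gene; the vertical axis is the deposited log2(value + 1) and the horizontal axis the run, with points spread sideways for legibility. The dashed line marks a linear value of 1 and the dotted line 10. Cxcr5 and Slamf6 have fewer cells between the lines (18 and 23) than above them (42 and 62), Tox has 45 and 51, and Izumo1r has most cells, 114 of 178, at 10 or above.

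Cxcr5, the follicle-homing receptor, was held by 32.0% of Mar1 cells, 21.1% of Mar17 cells, 45.8% of Apr13 cells and 37.5% of Apr21 cells. By capture the share was 24.4% in March (20 of 82 cells, exact Clopper-Pearson 95% interval 15.6 to 35.1%) and 41.7% in April (40 of 96 cells, 31.7 to 52.2%). Its mean over captures was 33.0% ± 12.2 (SD, n = 2). Both April runs lay above both March runs, but the difference came from weakly positive cells. Between 1 and 10 there were 2 March cells and 16 April cells, while at 10 or above the share was 22.0% in March and 25% in April, with the runs overlapping. The highest single-cell linear values were 1671 in March and 1786 in April.

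Pdcd1, the PD-1 gene, was held by 1 of 25 cells in Mar1 (4%), by 14.0% in Mar17, by 20.8% in Apr13 and by 18.8% in Apr21. The capture shares were 10.98% in March (9 cells, 5.14 to 19.8%) and 19.8% in April (19 cells, 12.4 to 29.2%), so the intervals meet. As for Cxcr5, the cells between 1 and 10 were 2 in March and 9 in April, and at 10 or above the shares were 8.54% and 10.4%. The few cells that held Pdcd1 strongly reached a linear value of 2034 in March and 2818 in April.

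Slamf6 was held by 40%, 47.4%, 47.9% and 52.1% of cells in Mar1, Mar17, Apr13 and Apr21. The capture shares, 45.1% and 50%, had overlapping intervals (34.1 to 56.5% and 39.6 to 60.4%). Cells that held it had a median log2 value of 4.90 (March) or 7.24 (April). Izumo1r was the one gene of the 8 with the reverse order, 100% of Mar1, 98.2% of Mar17, 93.8% of Apr13 and 91.7% of Apr21 cells. Its shares at 10 or above were 65.9% in March and 62.5% in April, and the runs overlapped. Its level differed more between the March runs than between captures, with a median log2 value over all cells of 9.74 in Mar1 and 5.41 in Mar17, against 7.07 and 8.39 in the April runs.

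Sh2d1a, which encodes the adaptor that binds SLAM family receptors, was held by 64.0% and 66.7% of cells in the March runs and 79.2% and 81.2% in the April runs. The capture shares were 65.9% in March (54.6 to 76.0%) and 80.2% in April (70.8 to 87.6%). The April runs stayed above the March runs at 10 or above, 35.4% of March and 49.0% of April cells. The median log2 value of holding cells went from 4.68 (March) to 7.504 (April).

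Bcl6, the repressor that defines the programme, was held by 12.0% of Mar1, 12.3% of Mar17, 16.7% of Apr13 and 18.8% of Apr21 cells. That is 10 cells in March (interval 6.01 to 21.3%) and 17 in April (10.7 to 26.8%). Its level stayed low: the highest linear value was 126 in March and 319 in April, lower than the maxima of the other 7 genes in each capture. Counting every value above 0 removed the difference, with 29.3% of March and 29.2% of April cells. Tox was held by 56.0%, 47.4%, 60.4% and 54.2% of cells in the same order of runs, so the runs overlapped at 1. They did not at 10 or above, where the capture shares were 22.0% and 34.4%.

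Il21, the B cell helper cytokine, was held by 24.0% of Mar1 cells but 10.5% of Mar17 cells, and by 27.1% and 29.2% of cells in the April runs. The capture shares were 14.6% (12 cells, 7.80 to 24.2%) and 28.1% (27 cells, 19.4 to 38.2%). The order of the runs changed at 10 or above, with Mar1 at 20.0% and Mar17 at 7.02%, on either side of the April runs. The highest linear value was 539 in March and 2126 in April. Il4, the other cytokine given to B cells in follicles, was held together with Il21 in 2 March and 5 April cells.

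Set side by side, 6 of the 8 genes had both April runs above both March runs at a linear value of 1 (Cxcr5, Pdcd1, Sh2d1a, Bcl6, Il21 and Slamf6), and 1, Izumo1r, had both below. Of all 12432 genes, 22.2% were above in this sense and 17.3% below. At 10 or above the count was 3 of 8 (Sh2d1a, Bcl6 and Tox), against 24% of all genes, and 0 of 8 were below, against 9.25%. Only Sh2d1a and Bcl6 were in both counts. The captures were not tested against each other, since each is 1 sample of the same group. A share at a fixed threshold moves with the number of cells using a gene and with the RNA read per cell, and these cannot be told apart here.

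**Figure D2:**
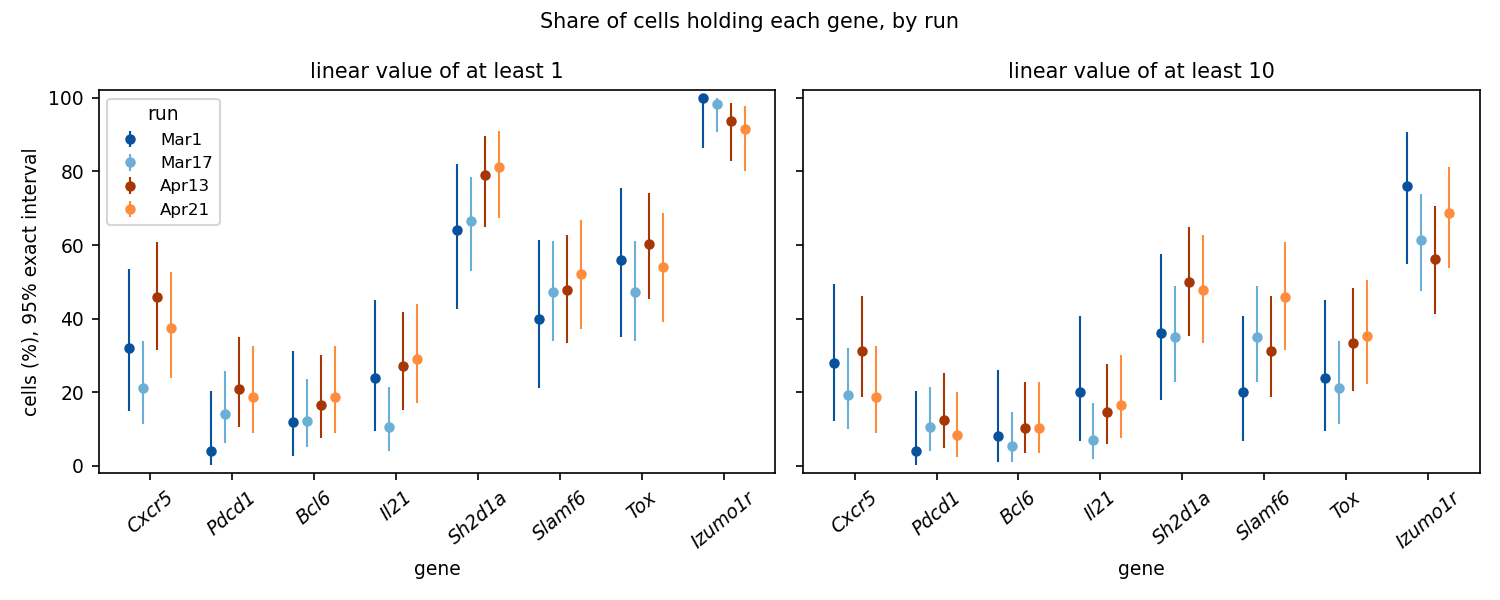
Share of cells of each run (%, vertical axis) that held each gene (horizontal axis), at a linear value of at least 1 on the left and 10 on the right; points are runs and bars are exact 95% intervals for counting error only. The April runs lie above the March runs for Cxcr5, Pdcd1, Sh2d1a, Bcl6, Il21 and Slamf6 on the left, and on the right for Sh2d1a, Bcl6 and Tox.

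Every cell held at least 1 of the 8 genes and none held all 8, at a linear value of 1. Both statements change with the threshold: 22 cells held 0 of the genes at 10, and 11 held all 8 with any value above 0 counted. At 1, cells of March held 3.22 ± 1.40 genes (mean and SD over 82 cells, median 3) and cells of April 3.88 ± 1.56 (96 cells, median 4). The means of the runs were 3.32 in Mar1, 3.18 in Mar17, 3.92 in Apr13 and 3.83 in Apr21. Cells with 5 or more genes numbered 14 in March (17.1%, interval 9.66 to 27.0%) and 35 in April (36.5%, 26.9 to 46.9%). This difference was smaller at 10 or above, 7.32% against 11.5%. The number of genes held rose weakly with the number of genes detected in the cell. The Spearman rho was 0.312, 0.394, 0.111 and 0.288 in Mar1, Mar17, Apr13 and Apr21, a description over 25 to 57 cells per run that are not replicates. Across captures the 2 numbers did not move together, since fewer genes were detected per cell in April.

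The 18 cells with 6 or more of the genes show what the fullest profile was made of. Tox and Izumo1r were held by 18 of 18, Cxcr5 and Sh2d1a by 17, Pdcd1, Bcl6 and Slamf6 by 12 each, and Il21 by 10. Of these cells 4 were from March and 14 from April. In the 31 cells with 5 genes, Bcl6 was held by 5 and Pdcd1 by 9, while Sh2d1a was held by 29 and Slamf6 by 25. The 45 cells with 2 or fewer held mainly Izumo1r, with Sh2d1a in 16, Tox in 11, Slamf6 in 5, Cxcr5 in 4, Bcl6 in 1 and Pdcd1 and Il21 in 0. These counts describe how the number is made up; a gene in the number is bound to be more frequent where the number is high.

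**Figure D3:**
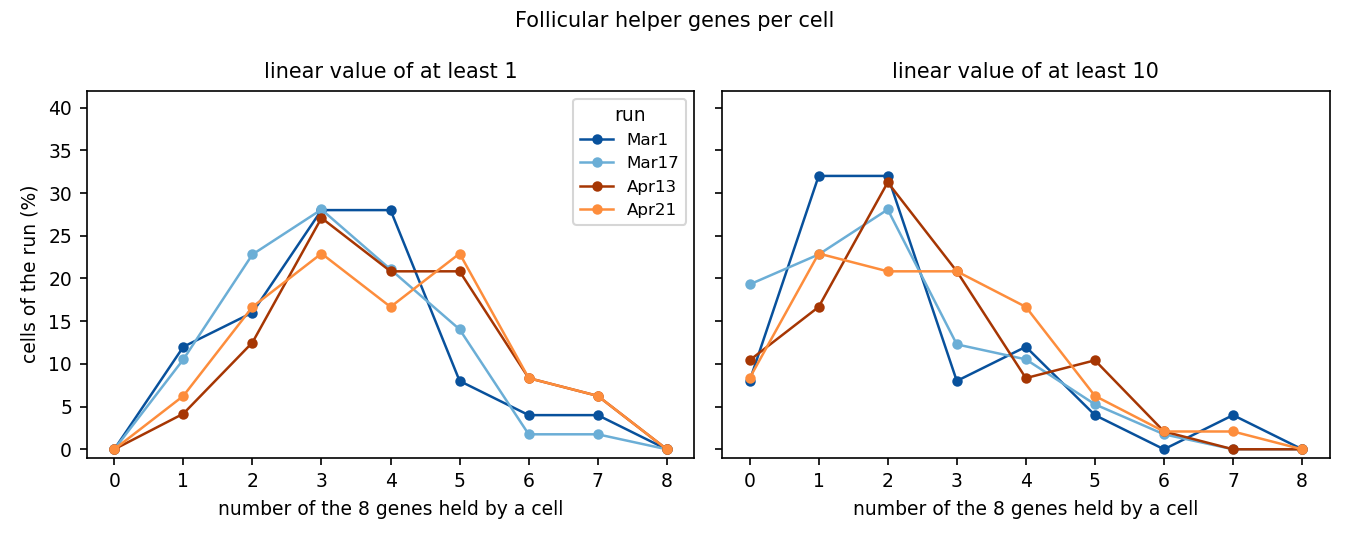
Percentage of the cells of each run (vertical axis) by how many of the 8 genes a cell held (horizontal axis), at a linear value of at least 1 (left) and 10 (right); each line is 1 run. On the left the April lines carry more cells at 5 to 7 genes than the March lines, and on the right each run has its highest share at 1 or 2 genes, with the runs differing most at 1 and 3 genes.

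Which of the genes met in the same cell was then counted. For each pair the number of cells holding both was set beside the number given by the product of the 2 shares, computed within each run and summed over the 4 runs. At a linear value of 1 the pairs with the highest ratios joined Cxcr5, Pdcd1 and Bcl6. Such a ratio has a ceiling, which is lower for genes held by more cells. Pairs with Sh2d1a (held by 73.6% of cells) or Tox (53.9%) could therefore not rise as far. The order of the pairs is thus not independent of the shares. Pdcd1 and Bcl6 were held together by 9 cells where the product gave 4.46 (ratio 2.02), Cxcr5 and Pdcd1 by 19 cells where it gave 9.96 (1.91, above the product in 4 of 4 runs), and Cxcr5 and Bcl6 by 16 cells where it gave 9.48 (1.69, above in 3 of 4 runs). Seen from the cell, Cxcr5 was held by 6 of 9 Pdcd1-holding cells and 14 of 73 others in March, and by 13 of 19 and 27 of 77 in April. The link to Bcl6 was less even. Cxcr5 was held by 3 of 10 Bcl6-holding cells and 17 of 72 others in March, but by 13 of 17 and 27 of 79 in April.

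Tox had higher ratios with these 3 genes at the higher threshold. At 10 or above, Cxcr5 and Tox met in 23 cells where the product gave 12.2 (1.89, above in 4 of 4 runs), Pdcd1 and Tox in 11 cells where it gave 4.92 (2.24, 4 of 4 runs), and Bcl6 and Tox in 10 cells where it gave 4.55 (2.20, 3 of 4 runs). At 1 the same ratios were 1.14, 1.31 and 1.36. Tox was held by 50% of March and 57.3% of April cells at 1, but by 22.0% and 34.4% at 10. The ceiling of its ratios was therefore higher at 10. Of the cells with Pdcd1 at 10 or above, 5 of 7 in March and 6 of 10 in April had Tox at 10 or above, against 13 of 75 and 27 of 86 of the other cells. Both counts rest on few cells.

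The receptor SLAMF6, its adaptor SAP and the cytokine were taken next. Sh2d1a and Slamf6 were held together by 70 cells where the product gave 62.9 (1.11) and Sh2d1a and Il21 by 34 where it gave 29.5 (1.15), each above the product in 4 of 4 runs. Il21 and Slamf6 met in 21 cells where it gave 18.8 (1.12), but at 10 or above in 8 where it gave 8.26 (0.97, above in 1 of 4 runs). At 10 or above, where the ceiling is higher, the ratio of Sh2d1a and Il21 was 1.71, with 18 cells where the product gave 10.5. Sh2d1a reached that level in 6 of 9 Il21-positive cells in March and in 12 of 15 in April, against 23 of 73 and 35 of 81 of the rest. Between Sh2d1a or Slamf6 and the trio of Cxcr5, Pdcd1 and Bcl6 the ratios at 1 lay between 0.92 and 1.11. Cxcr5 and Slamf6 had the same 1.11 as Sh2d1a and Slamf6. At 10 or above these ratios lay between 0.90 (Sh2d1a and Bcl6) and 1.33 (Pdcd1 and Slamf6). Cxcr5 and Sh2d1a had 1.26 there, beside 1.23 for Sh2d1a and Slamf6, so the lower ratios with the trio held only at 1. At 1, Pdcd1 and Sh2d1a met in 21 cells where the product gave 21.2, and Pdcd1 and Slamf6 in 13 where it gave 13.7. Bcl6 and Slamf6 met in 12 where it gave 13.04 (0.92, the lowest of the 28 pairs). Il21 met Pdcd1 more often, in 9 cells where the product gave 6.42 (1.40, above in 4 of 4 runs). At 10 or above these were 6 cells where it gave 2.16, a ratio of 2.77 and the highest of the 28 at that threshold. Pairs with Izumo1r were close to 1 at the lower threshold because nearly every cell held it.

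Of the 28 pairs 24 had a ratio above 1, with a median of 1.09. Over all pairs of genes held by at least 10% of cells, 57.9% had a ratio above 1 and the median was 1.02. With 10 as the threshold it was again 24 of 28, with a median of 1.24, against 55.1% and 1.03 over all pairs of genes at that level in at least 5% of cells. The 28 pairs share 8 genes and the same cells and are not independent. Rank correlations over all values ordered the pairs differently. The mean Spearman rho over the 4 runs was positive for 23 of 28 pairs, with a median of 0.117, against 59.2% and 0.0199 over all pairs of genes. It was highest for Bcl6 and Tox (0.263, lowest run -0.158) and Cxcr5 and Bcl6 (0.231, lowest run -0.0705), each positive in 3 of 4 runs. Cxcr5 and Pdcd1 (0.102) and Pdcd1 and Bcl6 (0.0959) lay below the median. Values this low in sparse single-cell data are given as a description only.

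**Figure D4:**
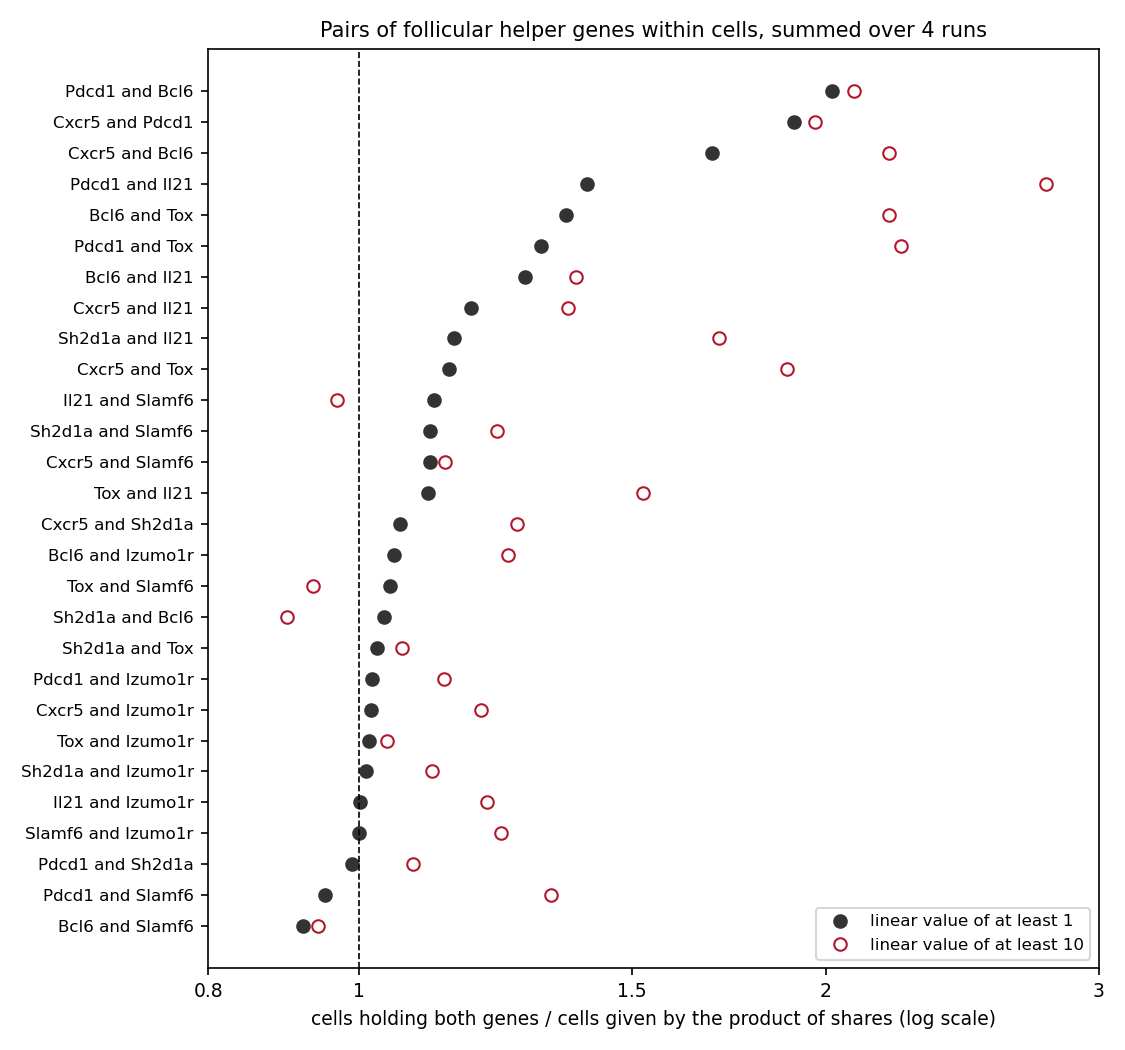
For each of the 28 pairs (rows), the horizontal axis is the number of cells holding both genes divided by the number given by the product of their shares within runs, on a log scale; filled points use a linear value of 1 and open points 10. The dashed line marks a ratio of 1, and the ceiling of a ratio is lower for genes held by more cells. Pairs among Cxcr5, Pdcd1 and Bcl6 lie between 1.69 and 2.20 at both thresholds, and the pairs of Tox with these 3 genes lie farther from 1 at the higher one.

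Cells with Cxcr5, Pdcd1 and Bcl6 together, the combination closest to a germinal centre helper profile, were rare. There were 0 of 82 in March, which allows a share of up to 3.66%, and 6 of 96 in April (6.25%, 2.33 to 13.1%), 4 of them in Apr13 and 2 in Apr21. Only 2 cells, both from April, had all 3 genes at 10 or above. At least 1 of the 3 genes was held by 28 cells in March (34.1%, interval 24.0 to 45.4%) and by 49 in April (51.0%, 40.6 to 61.4%). With 10 as the threshold these shares were 28.05% and 35.4%.

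Foxp3, which marks regulatory T cells and, beside Cxcr5, follicular regulatory cells, was itself held by few cells, 7 in March and 1 in April. Cxcr5 and Foxp3 were held together by 1 cell of 178, Pdcd1 and Foxp3 by 1 and Bcl6 and Foxp3 by 2, all from March. In April the 0 of 96 cells with Cxcr5 and Foxp3 allow a share of up to 3.12%. These counts are at a linear value of 1. With any value above 0 counted, Cxcr5 and Foxp3 met in 7 March and 4 April cells, and Foxp3 was seen in 17 and 6.

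Genes that went with Cxcr5 were then compared across the whole table. The mean log2 value was taken per capture in cells that held Cxcr5 and in the other cells, 20 and 62 cells in March and 40 and 56 in April, which gave 4 libraries. limma, with the capture as a block and 1 residual degree of freedom, tested 10794 genes at a Benjamini-Hochberg adjusted p of 0.05, and 4 genes (0.0371%) passed, all higher in Cxcr5-holding cells. At an unadjusted p under 0.05 there were 787 genes (7.29%). The 4 genes were Ctsb (a lysosomal cysteine protease), P4hb (a protein disulfide isomerase of the endoplasmic reticulum), S100a11 (a calcium-binding protein) and Traj23, a joining segment of the T cell receptor alpha locus that follows the receptor a clone carries. Ctsb had a mean log2 value of 5.82 against 3.26, a difference of 2.56 ± 0.56 (SE), with 2.80 in March and 2.33 in April (limma adjusted p = 0.0269, the same for all 4). P4hb differed by 2.16 ± 0.47, S100a11 by 2.47 ± 0.56 and Traj23 by 2.12 ± 0.48. S100a11 differed by 4.46 in March and by 0.48 in April, a gap that its SE, drawn from the trend over all genes, does not reflect. None of the 4 passed when the cells of Mar1 were left out, when a linear value of 10 defined the holding cells, or without the capture block, so these calls hang on the setting.

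None of the other 7 follicular helper genes passed between the Cxcr5 classes. Their differences of mean log2 value were 1.42 ± 0.50 for Tox, 1.16 ± 0.37 for Pdcd1, 1.02 ± 0.55 for Izumo1r, 0.95 ± 0.56 for Sh2d1a, 0.80 ± 0.31 for Bcl6, 0.40 ± 0.51 for Slamf6 and 0.35 ± 0.38 for Il21, all with limma adjusted p between 0.399 and 0.968. The sign was positive in both captures for 6 of 7, Slamf6 being the exception, against 32.8% of all genes tested. With the log2 of the mean linear value Il21 and Slamf6 turned to -0.155 and -0.503, and Slamf6 to -0.197 without Mar1. Pdcd1 had a mean log2 value of 1.73 in holding cells and 0.57 in the others. Bcl6 differed by 0.33 in March and 1.28 in April.

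A wider list of 32 follicular helper gene names (Slamf5 being an older name of Cd84), of which 26 were tested, had 17 members higher in both captures in Cxcr5-holding cells and 3 lower, with 0 called by limma and 10 at an unadjusted p under 0.05. Of all genes 32.8% were higher and 18.7% lower in both captures. This list and those used below were chosen with earlier results of these data known, so such counts are no independent support. The median difference of the wider list was 0.69, against 0.08 over all genes. General CD4 T cell genes had a median close to this: of 10 tested, 7 were higher in both captures and 1 lower, with a median of 0.60. Il1r2, a decoy receptor for interleukin 1, had the smallest p, with 1.46 ± 0.38, 1.59 in March and 1.32 in April (limma adjusted p = 0.135). Fyn, the kinase that SAP recruits to SLAM receptors, differed by 1.93 ± 0.54, Ptpn11, the phosphatase SHP2 that binds the PD-1 tail, by 1.14 ± 0.40, and Hif1a by 1.33 ± 0.48. Btla, an inhibitory receptor of helper cells, was higher by 1.24 in March and 1.15 in April. Icos and Batf, by contrast, were higher in March by 2.28 and 2.07 and lower in April by 0.39 and 0.29. The limma adjusted p of these 6 genes lay between 0.229 and 0.792.

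The genes known to be low in follicular helper cells leaned the other way, mainly in April. Of 18 listed and 14 tested, 8 were lower in both captures in Cxcr5-holding cells and 2 higher, where 18.7% of all genes were lower in both. The median difference was -0.26, with -0.05 in March and -0.32 in April. The summed linear value of the list had a median of 1501 in Cxcr5-holding cells against 1459 in March, and 1009 against 1660 in April. Klf2, a factor that keeps T cells recirculating and that the series names in its title, had the smallest p of this list, with a mean log2 value of 0.97 in Cxcr5-holding cells and 2.07 in the others, a difference of -1.09 ± 0.40 (limma adjusted p = 0.444). Its sign was the same in both captures, -0.94 in March and -1.24 in April. Klf2 and Cxcr5 were still held together by 5 of the 20 Cxcr5-holding cells in March and 6 of the 40 in April. Cxcr4 went against its list, with a difference of 1.03 ± 0.38 and the same sign in both captures. It is also known as the receptor that draws germinal centre cells to the dark zone.

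Cells that held Pdcd1 were few, 9 of 82 in March and 19 of 96 in April, and limma called 0 of 10794 genes (0%), with 620 genes (5.74%) at an unadjusted p under 0.05 and a smallest adjusted p of 0.837. The March cells also had more genes detected, a median of 6044 against 5217 in the other March cells, while in April the medians were 5020 and 4932. What part this had in the March differences was not tested. Tox differed by 2.75 ± 0.80, with 4.06 in March and 1.44 in April, and Cxcr5 by 2.10 ± 0.69, with 2.96 and 1.24. Bcl6 (0.83 ± 0.46), Izumo1r (0.69 ± 0.71) and Il21 (0.58 ± 0.53) were also positive in both captures, so 5 of 7 were, against 33% of all genes tested. Sh2d1a differed by 0.05 ± 0.84, positive in March and negative in April, and Slamf6 by -0.55 ± 0.68. The sign of Sh2d1a turned under 5 other settings, that of Slamf6 at a linear value of 10 (0.155) and that of Izumo1r with any value above 0 (-0.211).

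In the wider helper list 18 of 26 tested genes were higher in both captures in Pdcd1-holding cells and 2 lower, where 33% of all genes were higher. The median difference was 1.22 against 0.14 over all genes. Maf, a transcription factor that drives Il21 and Il4, differed by 2.76 ± 0.81, Btla by 1.96 ± 0.69, Il4 by 1.75 ± 0.60 and Ptpn11 by 1.73 ± 0.59, each of the same sign in March and April and with a limma adjusted p of 0.837. The difference of Ptpn11 turned to -0.0438 when any value above 0 counted as holding Pdcd1. The medians of this list were 2.05 in March and 0.49 in April. Among the genes known to be low in helper cells, 10 of 14 were lower in both captures, where 19.2% of all genes were, and Klf2 differed by -1.45 ± 0.51. Cxcr4 was again higher, by 2.03 ± 0.62. Lef1 and Tcf7, which the wider list holds because early helper cells need them, were lower in both captures, with differences of -1.65 ± 0.76 and -1.25 ± 0.73.

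**Figure D5:**
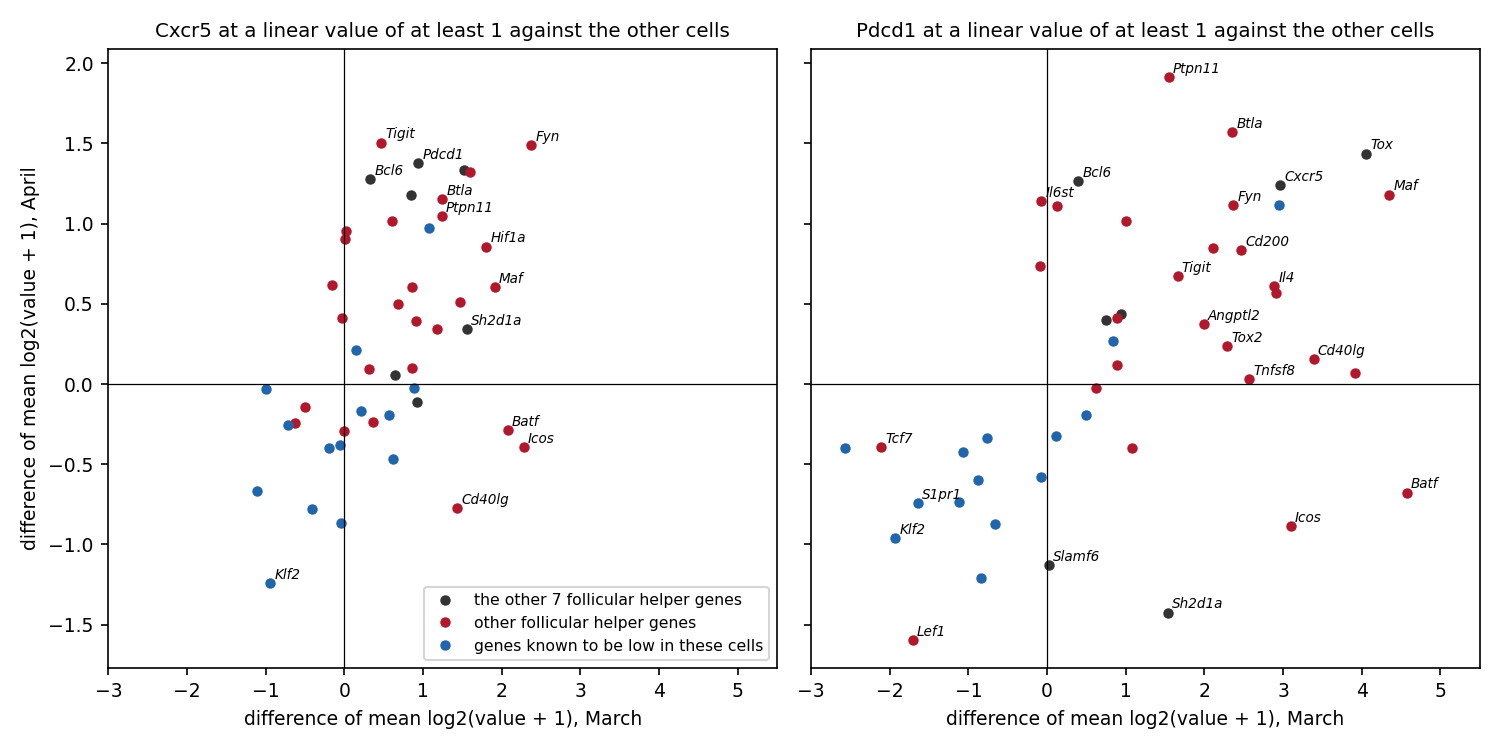
Difference in mean log2(value + 1) between cells that hold Cxcr5 (left) or Pdcd1 (right) and the other cells, March on the horizontal and April on the vertical axis; each point is 1 gene, black for the other 7 follicular helper genes, red for the wider helper list and blue for genes known to be low in helper cells. Most red points lie at upper right and most blue points at lower left, and Icos and Batf lie at lower right; no plotted gene passed the limma threshold.

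Cells were also split by how many of the 8 genes they held: more than the median of their capture (33 cells in March, 35 in April) against the rest (49 and 61). The 8 genes themselves were left out. limma called 0 of 10787 genes (0%), with 903 (8.37%) at an unadjusted p under 0.05. Fyn had the smallest p of all genes tested, with a mean log2 value of 5.10 against 2.53 and a difference of 2.57 ± 0.48 (limma adjusted p = 0.0755), 2.47 in March and 2.67 in April. It was followed by Slc9a9, an endosomal sodium-proton exchanger (2.10 ± 0.42, but -0.572 between cells with 4 or more of the genes and cells with 1 or fewer), S100a11 (2.44 ± 0.50) and Ptpn11 (1.84 ± 0.38), all with a limma adjusted p of 0.0899. Fyn and Ptpn11 were members of the wider list and were called under other settings: both passed with no filter on low values and without the cells of Mar1, where 4 genes were called each time. With any value above 0 as held, 10 genes were called, Fyn among them but not Ptpn11. Without counting Slamf6 and Izumo1r, 4 genes were called, with neither Fyn nor Ptpn11 among them. Settings with 0 calls included no block (smallest limma adjusted p 0.918), a pseudocount of 10 (0.789), no mostly mitochondrial cells (0.699) and runs as libraries (0.404). Of the wider list 20 of 26 were higher in both captures and 1 lower, where 39.6% of all genes were higher, and the median difference was 0.86 against 0.12. Il7r, the interleukin 7 receptor of resting T cells, had a difference of -1.34 ± 0.47 (limma adjusted p = 0.431). Its list, the genes known to be low in helper cells, was mixed here: 7 of 14 were lower in both captures, where 14.6% of all genes were, and 3 higher, Cxcr4 among them with 0.60 ± 0.33, and the median was -0.17. Cells with many of the genes had more genes detected, medians of 5518 against 5217 in March and 5025 against 4927 in April. With classes balanced for genes detected, 0 genes were called and the smallest limma adjusted p was 0.534.

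Markers of other cells were read in the same classes, those of Cxcr5 first. Follicular regulatory genes, 8 tested, were higher in both captures for 5 between the Cxcr5 classes, where 32.8% of all genes were, with a median of 0.45. The list shares Il1r2 with the wider helper list. Those with the smallest p were Il1r2, Tnfrsf4 (1.24 ± 0.52) and Nt5e (1.003 ± 0.43), a surface enzyme found on helper and regulatory cells. For B cells, 9 of 18 listed genes were in the table and 7 were tested. Of these, 4 were higher in both captures and 0 lower, where 32.8% and 18.7% of all genes were. The summed linear value of the 9 ranged from 3.21 to 1430 in Cxcr5-holding March cells (median 40.2) and from 0.283 to 50427 in the others (median 9.67), and from 1.49 to 2745 (median 21.6) and 1.60 to 4869 (median 11.04) in April. Igkc, the immunoglobulin light chain that B cells make in bulk, was held by 12.2% of cells in March and 2.08% in April, with 2.44% and 1.04% at 10 or above. Cd79a, Cd79b and Ms4a1 were not analysed here. Between the Pdcd1 classes the B cell sum had a median of 131.6 in holding cells against 11.5 in March and 27.2 against 11.9 in April. Here 2 of 7 genes were higher in both captures, near the 33% of all genes. The part of B cell RNA in the Cxcr5 and Pdcd1 differences was not tested. The follicular regulatory list had a median of 0.90 between the Pdcd1 classes (5 of 8 higher in both captures, 2 lower) and 0.88 between cells with many and few of the genes (6 higher, 1 lower), beside 1.22 and 0.86 for the wider helper list. CD4 T cell genes had medians of 0.28 (4 of 10 higher, 0 lower) and 0.47 (3 higher, 2 lower). Of all genes, 33% were higher and 19.2% lower in both captures between the Pdcd1 classes. Between cells with many and few of the genes these shares were 39.6% and 14.6%. The myeloid list had 3 genes in the table, with median sums between 2.28 and 3.86 in the Cxcr5 classes. The CD8 and NK list had 4, with medians between 0 and 0.0739 there. In March the Pdcd1-holding cells had medians of 4.61 (myeloid) and 4.50 (CD8 and NK), against 2.07 and 0 in the other cells. In April these were 2.86 and 0 against 2.96 and 0. In the classes by number of genes held the myeloid medians lay between 1.86 and 3.51 and those of CD8 and NK at 0. The part of such RNA in the Pdcd1 differences was not tested.

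Last, the genes whose values followed each of the 8 most closely were named, by the mean Spearman rho over the 4 runs among 4614 genes held by at least 25% of cells, with a rho above 0 in every run. They were Jup and S100a11 for Cxcr5, 9430038I01Rik and Gm15384 for Pdcd1, Traj18 and Mapre2 for Sh2d1a, Meox2 and Tnnt1 for Bcl6, Eva1c and Umad1 for Tox, Cope and Nfatc1 for Il21, Cd82 and Capza2 for Slamf6, and Pfkp and Hyal3 for Izumo1r. The mean rho lay between 0.258 and 0.375, and such weak values are no finding. Nfatc1, the T cell factor named beside Il21 (rho 0.312), was the only one from the wider helper list. Set among those 4614 genes by mean rho alone, Tox would have ranked at place 2 and Cxcr5 at place 22 for Bcl6. Pdcd1 and Cxcr5 stood at places 1109 and 795 for each other. These pairs were positive in 3 of 4 runs, so none met the rule of a rho above 0 in every run.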

How the data were processed

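Single cells were captured on a Fluidigm C1 and amplified with SMART-Seq v4, a full-length chemistry without molecular identifiers, per the labels' protocols. The authors deposited 1 table of log2 values for 12432 genes in 178 cells; the build is mm10, per the submitters' processing notes, and aligner and counter stand as not given in the sources used here. The unit was read from the values: 2 to the deposited log2 value, minus 1, sums to nearly the same total in every cell. Of 12432 identifiers 12163 were matched to symbols and 269 were not; 0 columns were unmapped. Run names come from the column names, and runs of a capture count as 1 replicate. No doublet caller was run. Some genes of the lists are not reported here by name.

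The 8 genes, the lists and the tests were chosen with earlier results of these data known. Intervals of shares are exact Clopper-Pearson at 95%; they and the limits from a count of 0 (3 cells of the total) cover counting error alone. Class differences used limma 3.58.1 in R 4.3.3 (mean-variance trend, two-sided, Benjamini-Hochberg at 0.05) on mean log2 values per capture and class, over genes above 0 in at least 10% of cells. The capture is the block because both classes come from the same capture. p-values rest on 2 captures only. With 1 residual degree of freedom, limma took the spread of a gene mostly from the trend over all genes tested. Between the Cxcr5 classes it came wholly from that trend. An SE or p-value is therefore no measure of how far a gene's own 2 captures differ. Differences include zeros and are not folds. The steps were tested on simulated data. Named genes were the 8 genes, those past the threshold or the 4 with the smallest p in each direction, up to 4 of a list with the smallest p, and 2 like genes each; genes named beyond this (Btla, Icos, Batf, Lef1, Tcf7, Cd4 and other markers) were chosen after their values were seen. Alternatives covered thresholds, pseudocounts, filters, runs, captures and the block. Python 3.11.15, numpy 2.4.6, pandas 2.3.3 and SciPy 1.17.1 did the rest.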

Additional observations from a re-analysis of the deposited data

How the results depend on the processing

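The threshold for holding a gene set the level of all counts. The median share of cells per gene was 40.3% as reported, 72.7% with any value above 0 and 25.8% at a linear value of 10, and the mean number of genes per cell 3.55, 5.33 and 2.24, or 2.88 at 10 times a gene's smallest value, an alternative chosen after seeing the data. The median share of cells holding both genes of a pair was 14.0%, 38.7% and 6.91%. Leaving out a capture gave 34.8 to 45.8% for the share, 3.22 to 3.88 for the number and 9.76 to 18.2% for the pair.

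The 4 genes called by limma between Cxcr5 classes became 0 without the replicate block, with the log2 of the mean linear value, with runs as libraries, with any value above 0 or 10 as held, and without Mar1 (the last 2 chosen after seeing the data). The 0 genes between cells with many and few of the genes became 4 with no filter, 10 with any value above 0 as held, 4 without Mar1 and 4 without counting Slamf6 and Izumo1r. No setting gave a call between Pdcd1 classes, where the smallest adjusted p was 0.0524, without Mar1. Without 1 capture no residual degree of freedom is left, so values have no test.

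Some differences changed sign, large ones among them (as reported, Slc9a9 2.10, Anxa6 -1.91 and Rps7 -1.48). With 4 or more genes against 1 or fewer, Ikzf2 was -0.0616, Slc9a9 -0.572, Anxa6 0.209 and Mis18a 0.0502; Rps7 was 0.156 at 10. Between Cxcr5 classes Runx3 was 0.0177 with any value above 0, Il21 -0.155 and Slamf6 -0.503 with the log2 of the mean, and Slamf6 -0.197 without Mar1. Between Pdcd1 classes Sh2d1a was -0.0480 with a pseudocount of 10, -0.0482 with the log2 of the mean, -0.135 with any value above 0, -0.162 at 10 and -0.163 without Mar1. There too Ptpn11 was -0.0438 and Izumo1r -0.211 with any value above 0, and Tnfrsf4 -0.0216 and Slamf6 0.155 at 10. The cause was not tested. Depth in reads is unknown, so no value here separates a gene that was missed from one that was absent.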

Other observations

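Genes of naive and central memory T cells, a list of 10 that were all tested, were lower in both captures for 7 between the Cxcr5 classes and higher for 0, with a median difference of -0.46, where 18.7% of all genes were lower in both. Between the Pdcd1 classes 8 were lower in both captures and 1 higher, with a median of -1.22, against 0.14 over all genes, of which 19.2% were lower in both. limma called none of them; 1 of 10 and 2 of 10 had an unadjusted p under 0.05, where 7.29% and 5.74% of all genes did. The list shares Klf2, Ccr7, S1pr1 and Il7r with the genes known to be low in helper cells, and Tcf7 and Lef1 with the wider helper list, so it is not a separate reading. Proliferation genes, 12 tested, did not move one way. Between the Cxcr5 classes 3 were higher and 2 lower in both captures, where 32.8% and 18.7% of all genes were, with a median of 0.12.

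Ribosomal protein gene Rps7 was among the genes with the smallest p in the lower direction in both the Pdcd1 classes (-2.70 ± 0.69, limma adjusted p = 0.837) and the classes by number of genes held (-1.48 ± 0.39, limma adjusted p = 0.267). In the latter it turned to 0.156 when a linear value of 10 defined a gene as held.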
